A study of Mus musculus with 13 samples.

Results

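The genes described are 10 epithelial genes, chosen by symbol among the 55487 genes counted in primary and spontaneously immortalized fibroblasts of mouse embryos (MEFs): 4 simple keratins (Krt7, Krt8, Krt18 and Krt19), 2 stratified keratins (Krt5 and Krt14) and 4 junction and regulator genes (Cdh1, Epcam, Esrp1 and Grhl2). All 10 symbols matched a gene identifier present in both deposited tables. Poly-A RNA was sequenced from 13 libraries in 4 groups: WT primary MEFs (clones 3, 4 and 5), the WT immortalized lines of the same clones, Prkd3-/- primary MEFs (clones 13, 14 and 15), and 4 Prkd3-/- immortalized lines (13, 13a, 14 and 15). Cultures were grown with 10% fetal calf serum (FCS), and cells that had become senescent on serial passaging were moved to 20% FCS until lines grew out. A number shared by a primary culture and a line names the same clone, and lines 13 and 13a share a clone number. The comparisons asked how the transcripts of these genes differed between the primary and the immortalized state in each genotype.

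Prkd3-/- is used here as the label of the samples, since the gene (protein kinase D3) was still counted, at 71.7 ± 2.32 CPM (counts scaled to library size; SD, n = 3) in WT primary, 82.2 ± 10.4 (n = 3) in WT immortalized, 38.8 ± 4.87 (n = 3) in Prkd3-/- primary and 53.5 ± 8.47 (n = 4) in Prkd3-/- immortalized libraries. Libraries held 35273408 to 100441756 assigned read pairs. Scaled by library size alone, without TMM, 3 counts, taken as the limit of detection, stood for 0.0299 to 0.0850 CPM. Counting error alone is covered by that limit. The 10 fibroblast markers summed to between 26266 and 98021 CPM in each library, and 0 of the 10 were called in either genotype. Fn1 and Col1a1 had the highest means of the list, 18685 and 15991 CPM over the 13 libraries. In WT line 3, 1 of the 10 markers had 3 counts or fewer. The 3 WT primary libraries lay closer to each other than those of any other group, with a mean chi-square of 6.14 to 15.8 per gene between them against 61.3 to 1033 elsewhere. Genotype and deposited table cannot be told apart, so levels are compared by state within a genotype.

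Keratins form the intermediate filaments of epithelial cells, in which a type I keratin pairs with a type II keratin. Krt8 and Krt18 are the pair of simple epithelia, often joined by the type II keratin Krt7 and the type I keratin Krt19, and mesothelial cells carry the same set. Krt5 and Krt14 are the pair of the basal layer of stratified epithelia such as the epidermis. Cdh1 encodes E-cadherin, the cadherin of epithelial adherens junctions, Epcam a surface glycoprotein of epithelial cells, Esrp1 a splicing regulator that sets epithelial isoforms, and Grhl2 a transcription factor of epithelial junction genes. Fibroblasts carry vimentin in place of keratins, and the Snai, Zeb and Twist factors are known repressors of epithelial genes, Snai and Zeb factors acting through E2-boxes in promoters.

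In GRCm38 the type II keratin genes are Krt5 (ENSMUSG00000061527, chr15:101707070-101712898, minus strand), Krt7 (ENSMUSG00000023039, chr15:101411043-101430313, plus strand) and Krt8 (ENSMUSG00000049382, chr15:101996698-102004482, minus strand), all within the keratin cluster of chromosome 15, where the type I gene Krt18 (ENSMUSG00000023043, chr15:102028180-102032027, plus strand) also lies. The other type I keratin genes are Krt19 (ENSMUSG00000020911, chr11:100140810-100148665, minus strand) and Krt14 (ENSMUSG00000045545, chr11:100203162-100207548, minus strand). The junction and regulator genes are Cdh1 (ENSMUSG00000000303, chr8:106603351-106670246, plus strand), Epcam (ENSMUSG00000045394, chr17:87635979-87651129, plus strand), Esrp1 (ENSMUSG00000040728, chr4:11331933-11386783, minus strand) and Grhl2 (ENSMUSG00000022286, chr15:37233036-37363569, plus strand). Reads of a gene were summed over all its exons.

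Stretches of 30 bases around E2-boxes are shown because the levels of the repressors that read such boxes were measured in the same libraries. RefSeq windows of GRCm38.p6, from 250 bases before to 50 bases after the start of a gene, were examined for 5 of the genes (Krt7, Krt18, Krt5, Krt14 and Epcam). Capitals mark the E2-box, searched as CACCTG and its reverse complement CAGGTG, and each sequence is written on the strand of its gene.
Krt7, chr15:101412347-101412376, plus strand: ccgccctgtcccCACCTGtgtgcgctcagc
Krt18, chr15:102027990-102028019, plus strand: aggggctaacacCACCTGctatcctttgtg
Krt5, chr15:101713016-101713045, minus strand: cacaccactgtgCAGGTGtgctgggtgagc
Epcam, chr17:87635780-87635809, plus strand: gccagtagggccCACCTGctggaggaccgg
Epcam, chr17:87635948-87635977, plus strand: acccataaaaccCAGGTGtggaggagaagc

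The boxes began 44 bases upstream of the RefSeq start of Krt7, 214 upstream of Krt18, 128 upstream of Krt5, and 187 and 19 upstream of Epcam. In the GENCODE annotation of the same build the box of Krt7 lay in an exon of a longer transcript of the same gene, and the other 4 boxes lay in no annotated gene. An E2-box was present in the windows of 4 of the 5 genes, Krt14 being the exception, and in 20.2% of all 32851 windows. The letters AACCGG (or CCGGTT), the core read by GRHL factors, were in none of these 5 windows and in 6.83% of all windows. These are matches of letters and not measured binding.

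Simple keratins made up nearly all of the signal of the 10 genes, and among them Krt19 was by far the most abundant. On the RPKM scale (CPM per kilobase of transcript), which allows genes to be compared, Krt19 averaged 13.9 over the 13 libraries, against 0.517 for Krt18, 0.414 for Krt7, 0.144 for Cdh1 and 0.0454 or less for each of the other 6 genes. In WT primary MEFs the order was Krt19 (4.51 to 6.81 RPKM), Krt18 (1.04 to 1.13), Krt7 (0.715 to 1.07), Cdh1 (0.107 to 0.199) and Krt8 (0.0392 to 0.0548). The ranges of Krt18 and Krt7 overlapped, and the other steps in that order did not. Below them, Krt14 (0.0262 to 0.0508 RPKM) overlapped with both Krt8 and Epcam (0.0140 to 0.0326).

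**Figure D1:**
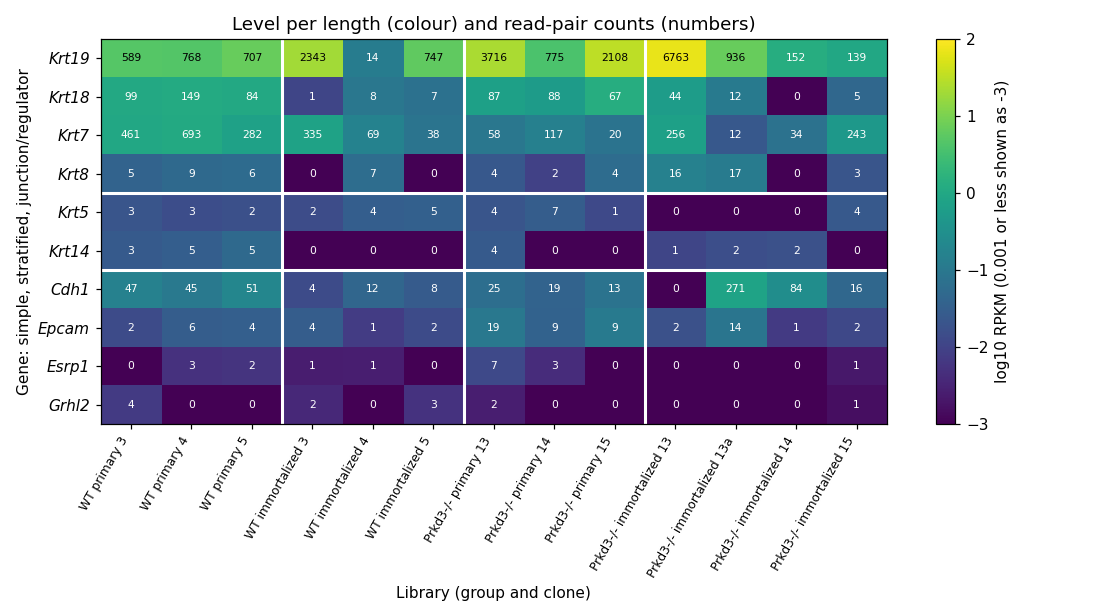
Level of each gene (rows) in each library (columns); colour gives log10 RPKM and the number in each cell the read pairs counted. Krt19 is the brightest row in most libraries, with 14 to 6763 read pairs, while Krt5, Krt14, Esrp1 and Grhl2 hold at most 7 in any library.

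Krt18 was the member with the clearest difference between states in WT. Its level was 1.52, 1.62 and 1.50 CPM in WT primary clones 3, 4 and 5, and 0.0161, 0.135 and 0.107 CPM in the lines of the same clones. Every line lay far below every primary culture, and line 3 held a single read pair. The Log2FC was −4.14 (standard error 0.60) with an edgeR adjusted p of 0.0177, under 0.05 but over the 0.01 that the study used together with |Log2FC| ≥ 1. DESeq2 placed the gene past both thresholds (adjusted p = 2.04e-15), edgeR did so when genes with few counts were also tested (adjusted p = 0.00773), and with the clone as a replicate block the edgeR adjusted p was 0.0970. Without primary clone 3, 4 or 5 it was 0.0928, 0.0997 and 0.0940. In bulk RNA, fewer cells of a keratin-bearing type and less keratin RNA per cell cannot be told apart.

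In the Prkd3-/- samples Krt18 stood at 1.00, 0.814 and 1.88 CPM in primary clones 13, 14 and 15, close to the WT primary range, and at 0.840, 0.164, 0 and 0.0674 CPM in lines 13, 13a, 14 and 15. In this genotype 3 lines lay below every primary culture, whereas line 13 lay within the primary range. The Log2FC was −2.24 (standard error 1.23, edgeR adjusted p = 0.819), so the difference did not pass the test, and without line 13 it was −3.94 (edgeR adjusted p = 0.370).

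Krt8, which encodes the type II partner of Krt18 and lies 23697 bases from it on chromosome 15, was near the detection limit throughout. It had 5, 9 and 6 read pairs in the WT primary cultures and 0, 7 and 0 in lines 3, 4 and 5. In the Prkd3-/- samples it had 4, 2 and 4 in the primary cultures and 16, 17, 0 and 3 in lines 13, 13a, 14 and 15. The states overlapped in both genotypes, and the counts were too low for the edgeR test. Krt8 shares 5.16% of its exon bases with Gm36026, a gene on the other strand. The counting of the WT table did not use strand, and for the Prkd3-/- table this is not given.

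Krt7 was present at 7.07, 7.54 and 5.04 CPM in the WT primary clones 3, 4 and 5 and at 5.40, 1.17 and 0.579 CPM in their lines. Lines 4 and 5 were low, but line 3 was within the primary range. The Log2FC was −1.46 (standard error 0.82, edgeR adjusted p = 0.394), and without line 3 it was −2.91 (edgeR adjusted p = 0.0154). In the Prkd3-/- primary clones 13, 14 and 15 Krt7 was at 0.668, 1.08 and 0.561 CPM, below all 3 WT primary cultures. Lines 13 and 15 were above every primary culture of that genotype, at 4.89 and 3.28 CPM, and lines 13a and 14 were below, at 0.164 and 0.531 CPM. The Log2FC there was 1.49 (standard error 1.06, edgeR adjusted p = 0.843; 0.77 without line 13), opposite in sign to WT, and the difference between the genotypes did not pass the interaction test (2.97, standard error 1.46, edgeR adjusted p = 1.00).

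Krt19, the smallest keratin and the one that lacks most of the tail domain, had a wide range among lines. In WT primary cultures it was at 9.03, 8.36 and 12.6 CPM, and in lines 3, 4 and 5 at 37.7, 0.237 and 11.4 CPM. Line 3 was above, line 4 below and line 5 within the primary range, so that no common direction was seen (Log2FC 0.72, standard error 1.32, edgeR adjusted p = 0.814). In Prkd3-/- primary clones 13, 14 and 15 the level was 42.8, 7.17 and 59.1 CPM. Line 13 reached 129.1 CPM, the highest value of any member in any library, line 13a held 12.8 CPM, and lines 14 and 15 held 2.38 and 1.87 CPM. The difference did not pass the test (edgeR adjusted p = 0.999, Log2FC −0.03 with a standard error of 1.45). The sign of the Krt19 Log2FC turned in both genotypes when single libraries were left out.

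**Figure D2:**
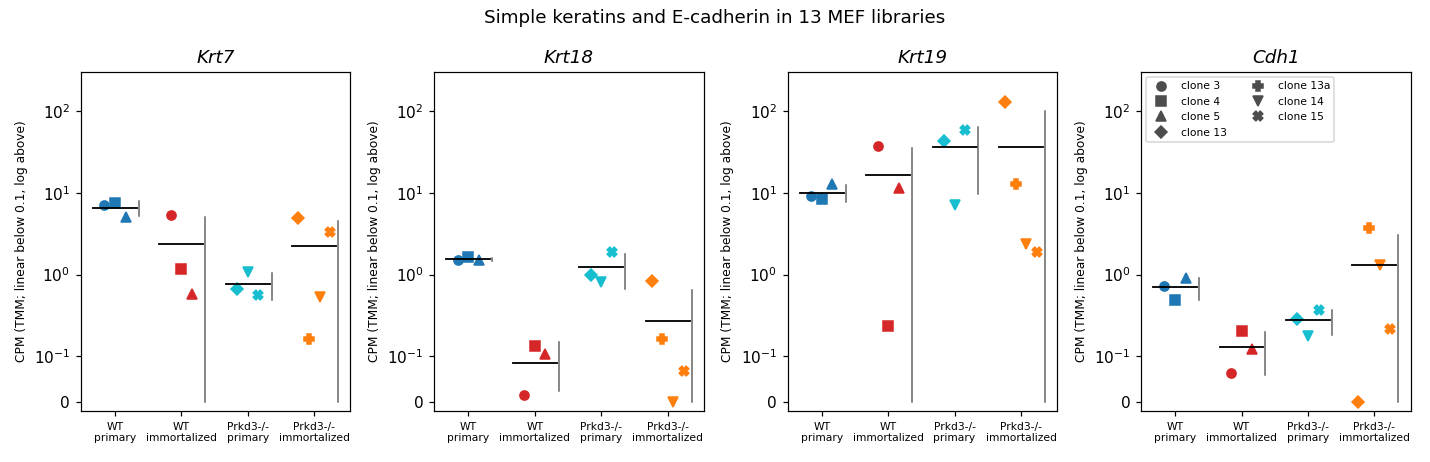
CPM (y axis, linear below 0.1 and logarithmic above) of Krt7, Krt18, Krt19 and Cdh1 by group (x axis); symbols mark clones, black lines group means, and grey lines 1 SD either side, drawn down to 0 where they pass it. Krt18 separates the WT states, whereas the WT lines of Krt19 span 0.237 to 37.7 CPM around the primary values.

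The stratified keratins gave almost no signal. Krt5 had 0 to 7 read pairs and Krt14 0 to 5 in any library. Krt14 had 3, 5 and 5 read pairs in the WT primary cultures and 0 in each of the 3 WT lines, and in the Prkd3-/- samples it had 4, 0 and 0 in primary cultures and 1, 2, 2 and 0 in lines 13, 13a, 14 and 15. Krt5 had 2 to 5 read pairs in every WT library, 4, 7 and 1 in the Prkd3-/- primary cultures, and 0, 0, 0 and 4 in the lines. Neither gene had enough counts for the edgeR test. Every WT line was below every primary culture for Krt14, as for 17.4% of the genes tested in edgeR. Primary clone 3, however, held only the 3 read pairs taken as the limit of detection. The primary mean, from 13 read pairs, was 1.31-fold above a floor of 3 counts per library in the lines (DESeq2 unadjusted p = 0.0128, with no adjusted p given).

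Cdh1 was low in WT primary MEFs and lower in the WT lines. Its level was 0.721, 0.490 and 0.912 CPM (47, 45 and 51 read pairs) in primary clones 3, 4 and 5 and 0.0644, 0.203 and 0.122 CPM (4, 12 and 8 read pairs) in the lines. The groups did not overlap, with a Log2FC of −2.43 (standard error 0.49, edgeR adjusted p = 0.0495), under 0.05 and over 0.01. DESeq2 called it (adjusted p = 0.000268), and with the clone as a replicate block the edgeR adjusted p was 0.203. It was also over 0.05 with DESeq2 size factors in edgeR (0.0502), without primary clone 3, 4 or 5 (0.186, 0.131 and 0.207) and without line 5 (0.0674).

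In the Prkd3-/- lines Cdh1 spread in both directions. The primary clones 13, 14 and 15 held 0.288, 0.176 and 0.365 CPM. Line 13a held 3.71 CPM (271 read pairs) and line 14 1.31 CPM, both above every primary culture of either genotype, whereas line 15 was within the Prkd3-/- primary range at 0.216 CPM and line 13 had 0 read pairs. The Log2FC was 2.26 (standard error 1.52, edgeR adjusted p = 0.843), and without line 13a it was 0.91. The difference from the WT change was 4.69 on the log2 scale (standard error 1.80), with an unadjusted edgeR p of 0.0240 and an adjusted p of 1.00.

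Epcam, Esrp1 and Grhl2 were at or near the limit of detection. Epcam had 2, 6 and 4 read pairs in WT primary cultures and 4, 1 and 2 in the lines. In the Prkd3-/- samples it had 19, 9 and 9 in the primary cultures and 2, 14, 1 and 2 in lines 13, 13a, 14 and 15, so that 3 of the 4 lines lay below every primary culture (Log2FC −1.36, standard error 0.88, edgeR adjusted p = 0.843). Esrp1 had at most 7 read pairs and Grhl2 at most 4 in any library. Line 13a, the highest for Cdh1, had 0 read pairs of both Esrp1 and Grhl2.

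**Figure D3:**
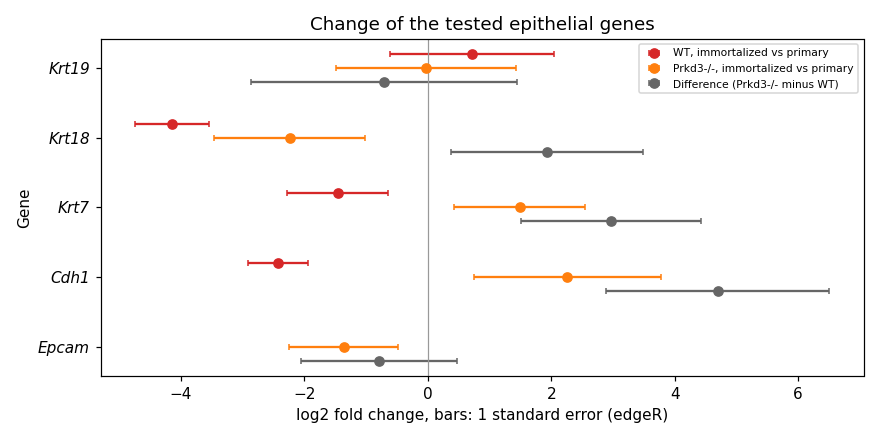
Log2FC (x axis) of the members that had enough counts, for WT, for Prkd3-/- and for the difference between them. Bars give 1 standard error, derived from the edgeR F statistic. Krt18 (−4.14) and Cdh1 (−2.43) in WT lie farthest from 0 relative to their errors, and Epcam was tested only where Prkd3-/- libraries entered.

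Across the list, 4 of the 10 members had enough counts to be tested in WT (Krt7, Krt18, Krt19 and Cdh1), and 0 of these 4 were called by edgeR at an adjusted p under 0.01 with |Log2FC| ≥ 1, where 1.82% of the 19836 tested genes were called. Krt18 and Cdh1 had an adjusted p under 0.05, as 5.27% of tested genes did, the same 2 had an unadjusted p under 0.05 (19.7% of tested genes), and DESeq2 called these 2. Each of the 361 edgeR calls of WT was lost with the clone as a replicate block. Every line was below every primary culture for Krt18 and Cdh1, a pattern shared by 17.4% of tested genes, and no tested member lay wholly above, as 13.9% of genes did. The median Log2FC was −1.94 over the 4 tested members and 0.04 over all tested genes.

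In Prkd3-/-, 5 members were tested (Epcam in addition) and edgeR called 0 of them, against 0.0% of the 20298 tested genes at either threshold. At an unadjusted p under 0.05 there were 0 members (6.56% of genes), and DESeq2 called 190 genes, of which 0 were members. No member had lines wholly below the primary cultures, as 5.26% of genes did, or wholly above, as 4.19% did. The median Log2FC was −0.03 over the 5 tested members and 0.07 over all tested genes. The interaction between genotype and state was called for 0.0% of the 21197 genes tested in edgeR, including 0 of 5 members, while 3.97% of genes, Cdh1 among them, had an unadjusted p under 0.05, and DESeq2 called 37 genes and 0 members.

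Summed by set, the simple keratins exceeded the other members in every library. In WT primary clones 3, 4 and 5 the 4 simple keratins summed to 6.97, 6.76 and 8.63 RPKM, and in the lines to 21.1, 0.448 and 6.30 RPKM. The Prkd3-/- primary cultures held 23.9, 4.59 and 33.3 RPKM, and lines 13, 13a, 14 and 15 held 71.0, 7.17, 1.36 and 1.54 RPKM. Line 4 was the lowest of all, and lines 3 and 13 were the highest of their genotypes.

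The stratified pair summed to 0.0458 to 0.0671 RPKM in WT primary cultures and 0.0147 to 0.0347 in WT lines, and to no more than 0.0472 in any Prkd3-/- library. The junction and regulator genes summed to 0.142 to 0.238 RPKM in WT primary cultures and to 0.0459 to 0.0548 in WT lines, all below. In Prkd3-/- they summed to 0.178, 0.0807 and 0.195 RPKM in the primary cultures and to 0.0174, 0.899, 0.294 and 0.0632 in lines 13, 13a, 14 and 15. The libraries highest for simple keratins and for junction genes thus differed: line 13 led the first set and was the lowest library for the second, which line 13a led through Cdh1.

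The type I keratins Krt18 and Krt19 together outweighed the type II keratins Krt7 and Krt8 in 12 of 13 libraries. In WT primary cultures the ratio of type I to type II RPKM was 5.69, 5.03 and 10.2, and in lines 3, 4 and 5 it was 26.6, 0.981 and 75.6. In Prkd3-/- it was 201, 27.2 and 242 in the primary cultures and 82.6, 49.4, 16.99 and 2.18 in lines 13, 13a, 14 and 15. Line 4 was the exception, with near equal amounts at a very low level. Krt19 alone made up 66.7% to 79.0% of simple keratin RPKM in WT primary cultures and 94.4% or more in 7 of the 13 libraries.

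**Figure D4:**
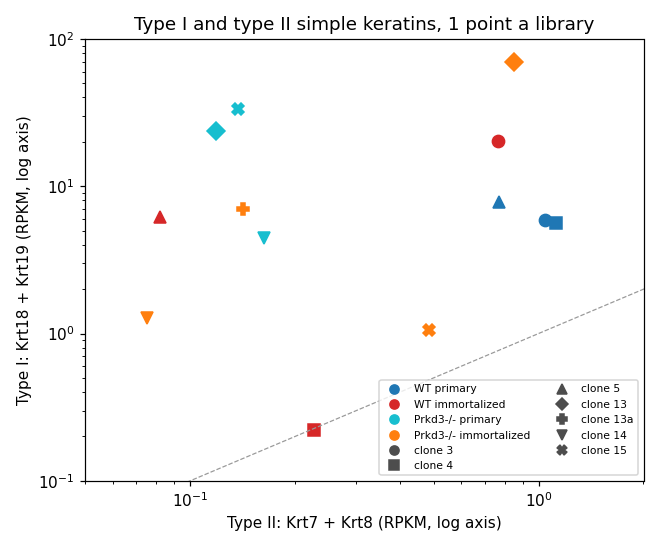
Summed RPKM of Krt18 and Krt19 (y axis, log) against Krt7 and Krt8 (x axis, log), 1 point per library; the dashed line marks equal amounts. All libraries but WT line 4 lie above the line, and the immortalized lines are scattered over both axes.

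Lines 13 and 13a, which carry the same clone number, had unlike levels of the members, and over all genes their mean chi-square was 636 per gene, within the 435 to 1033 of the other pairs of Prkd3-/- lines. Line 13 was 29.7-fold higher for Krt7, 10.1-fold higher for Krt19 and 5.11-fold higher for Krt18, whereas Cdh1 was at least 64.8-fold higher in line 13a against a floor of 3 counts in line 13. Each value rests on a single library per line.

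Of the 48 other keratin genes in the tables, 9 had no counts and 45 averaged under 1 CPM over the libraries. Krt80, Krt20 and Krt10, with the highest mean CPM of the list, were not called in either genotype. Krt80 was at 3.36 ± 0.334 CPM in WT primary and 7.50 ± 3.83 in WT immortalized libraries (SD, n = 3 each), and at 3.06 ± 0.927 (n = 3) and 22.6 ± 33.8 CPM (n = 4) in the Prkd3-/- states. The 4 simple keratins made up between 12.9% (WT line 4) and 94.0% (Prkd3-/- primary clone 15) of all keratin RPKM. Krt19 was the leading keratin in 10 libraries, Krt80 in WT line 4 and Prkd3-/- line 15, and Krt13 in Prkd3-/- line 14.

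Of 22 further epithelial junction genes, 12 were tested in WT and 1 was called lower and 0 higher. That gene was Perp, a tetraspan desmosomal protein and p53 target, at 24.4 ± 2.66 CPM in primary and 10.1 ± 1.27 in immortalized WT libraries (n = 3 each; Log2FC −1.27, standard error 0.15, edgeR adjusted p = 0.00803). Cdh3 (P-cadherin) was far more abundant than Cdh1 per length, at 22.7 RPKM in WT primary MEFs. It stood at 99.4 ± 2.26 CPM there and 121 ± 49.6 CPM in WT lines (n = 3 each; edgeR adjusted p = 0.661). In Prkd3-/- it was at 103 ± 37.1 CPM in primary cultures (n = 3) and 31.6 ± 11.1 in lines (n = 4). The Log2FC there was −1.72 (standard error 0.33, edgeR adjusted p = 0.296). Every Prkd3-/- line (23.5 to 48.0 CPM) was below every primary culture (65.7 to 139.9), as for 5.26% of tested genes. The 14 other epithelial regulators gave 0 calls among 8 tested in WT, and the 7 catenins and adherens junction partners gave 0 of 7. In Prkd3-/- 0 genes of these lists were called.

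Of 6 mesenchymal genes tested, 0 were called in either genotype. Des (desmin), the lowest of them, was at 24.1 ± 1.69 CPM in WT primary and 3.10 ± 3.48 CPM in WT immortalized libraries (n = 3 each; edgeR adjusted p = 0.134), and at 12.2 ± 12.9 (n = 3) and 0.473 ± 0.336 CPM (n = 4) in the Prkd3-/- states (edgeR adjusted p = 0.310). Vim was at 4101 ± 330 CPM in WT primary and 3921 ± 1651 CPM in WT immortalized libraries (n = 3 each; edgeR adjusted p = 0.933). Cdh11, a cadherin of mesenchymal cells, was at 811 ± 32.5 and 1003 ± 451 CPM (edgeR adjusted p = 0.697), and Cdh2 (N-cadherin) at 120 ± 5.94 and 107 ± 27.4 CPM (edgeR adjusted p = 0.700). The 6 repressors Zeb1, Zeb2, Snai1, Snai2, Twist1 and Twist2 summed to 475 to 479 CPM in WT primary cultures, 456 to 512 in WT lines, 370 to 512 in Prkd3-/- primary cultures and 391 to 573 CPM in Prkd3-/- lines. Of the 6, Twist1 had an edgeR adjusted p under 0.01 in WT (0.00656), with a Log2FC of −0.94 that missed the fold threshold. Across both genotypes 0 of the 6 passed both thresholds. Every WT line was below every primary culture for Twist1 (42.8 to 50.7 against 84.9 to 95.7 CPM), as for 17.4% of tested genes. For Zeb1 every WT line was above (143.8 to 190.0 against 115.6 to 118.2 CPM, edgeR adjusted p = 0.0715), as for 13.9%. The WT states overlapped for Zeb2, Snai1, Snai2 and Twist2.

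Some markers of other cell types differed between the WT states, as Krt18 and Cdh1 did. The 6 mesothelial markers outside the list summed to 30.5 to 50.0 CPM in WT primary cultures and 0.863 to 5.23 CPM in WT lines, with Lrrn4 and Muc16 at 0 in all 3 lines. Msln (mesothelin) was at 38.6 ± 9.99 and 2.69 ± 1.80 CPM (n = 3 each; Log2FC −3.84, edgeR adjusted p = 0.0355), and of the 4 of 6 markers tested 2 (Msln and Upk1b) had an adjusted p under 0.05 and 0 were called. Most of the WT primary sum was Msln, at 27.4 to 46.6 CPM. The WT states overlapped for Upk3b, at 1.11 to 1.47 CPM in primary cultures and 0.169 to 1.59 in lines (edgeR adjusted p = 0.611). They also overlapped for Wt1, at 0.411 to 0.947 and 0 to 0.625 CPM (edgeR adjusted p = 0.588). In Prkd3-/- the sum of the 6 markers was 20.6, 8.44 and 18.7 CPM in primary clones 13, 14 and 15. It was 48.3, 2.74, 1.34 and 2.98 CPM in lines 13, 13a, 14 and 15. Line 13, which had the most Krt19, Krt18 and Krt7 of the Prkd3-/- lines, also had the most Msln of these lines (47.5 CPM), while 4 of the 6 mesothelial markers had 3 counts or fewer there, 3 of them 0. The members and the mesothelial sum did not always go together: WT line 3, high for Krt19, had a sum of 4.99 CPM, and line 13a, highest for Cdh1, had 2.74 CPM. The part of mesothelial cells in the keratin values was not tested.

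The 12 epidermal markers summed to 8.36 to 9.04 CPM in WT primary cultures, to 39.6, 5.48 and 4.99 CPM in WT lines 3, 4 and 5, and to 4.31 to 5.39 CPM in Prkd3-/- primary cultures. In Prkd3-/- lines the sum was 22.8 CPM in line 13 and 4.10 to 6.64 CPM in the other lines, and 0 of 6 markers tested in WT and 0 of 7 in Prkd3-/- were called. The high values of lines 3 and 13 came mostly from Pkp1, a desmosomal plaque protein, which reached 33.3 CPM among the WT lines and 19.8 CPM among the Prkd3-/- lines and was not called (edgeR adjusted p = 0.249 and 0.775). Macrophage and endothelial markers were also lower in the WT lines, with 3 of 5 and 1 of 4 tested genes called. Macrophage markers summed to 447 to 452 CPM in WT primary cultures and 24.2 to 79.0 in WT lines. Endothelial markers summed to 11.6 to 16.4 and 0.371 to 1.97 CPM. In Prkd3-/- the states overlapped for both sums, and 0 genes were called. Macrophage sums there were 69.0 to 592 CPM in primary cultures and 9.47 to 112 in lines. Endothelial sums were 15.2 to 29.0 and 1.55 to 17.6 CPM. The part of these cell types in the values of the members was not tested.

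**Figure D5:**
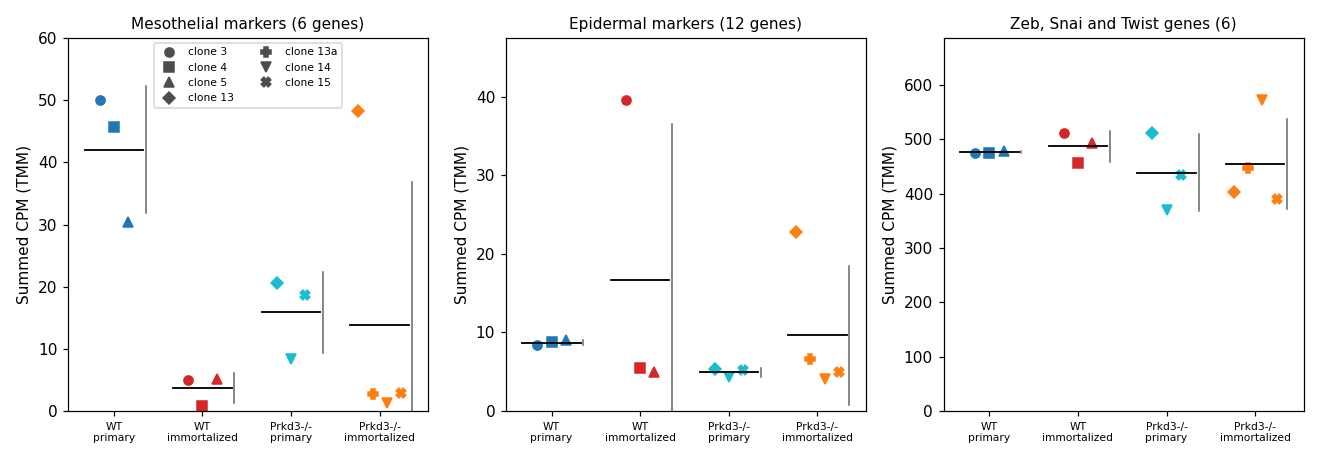
Summed CPM (y axis) of the 6 mesothelial markers, the 12 epidermal markers and the 6 Zeb, Snai and Twist genes by group (x axis), with symbols for clones, black lines for means and grey lines for 1 SD. The mesothelial sum is 30.5 to 50.0 CPM in WT primary cultures and 0.863 to 5.23 in WT lines, whereas the repressor sums of the groups overlap. Within the WT repressor sums Zeb1 is higher and Twist1 lower in every line.

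Likeness between profiles was measured as the root mean square difference of log2 CPM, centred on its mean over the 13 libraries, where a smaller value is more alike. The genes most like Krt18 were Gal3st1 (0.68), Evi2 (0.90) and Evi2a (0.92), those most like Krt19 included Odaph (1.04) and Vstm5 (1.15), and those most like Cdh1 were Ppara (0.75), Tinag (0.92) and Smc1b (0.94). Krt7 was nearest to Gm671 (1.05), then to Spn (1.06) and Gm9967 (1.10). Gm671 overlaps Krt7 on the other strand and shares 1.09% of the Krt7 exon bases. In the WT table, read pairs over the shared bases could count for both genes. The part of such pairs in the likeness was not tested. Krt8, at its low counts, was nearest to Elovl7 (0.89), Lrp8 (0.91) and Mboat1 (0.93). Only genes that passed the filter on low counts over the 13 libraries could be neighbours. Krt8, Krt5, Krt14, Esrp1 and Grhl2 did not pass it and could not be found as neighbours. For the 5 genes compared, no other member that passed was among the 3 nearest. For Krt19, Epcam ranked 276 of 21196 genes (1.85) and Krt18 ranked 15034 (2.49). For Krt18, Krt19 ranked 16496 (2.49) and Krt7 15739 (2.46).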

How the data were processed

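For 13 poly-A libraries the authors deposited unnormalized counts of read pairs by gene, in 2 tables that each hold 1 genotype. Reads had been aligned to mm10 with STAR 2.7.10a and counted with featureCounts (Subread 2.0.6) on an Ensembl annotation of GRCm38. For the WT table they were counted without strand, overlapping genes sharing reads. Counting options of the Prkd3-/- table are not given in the sources used here. Counts were normalized by TMM (CPM; RPKM is CPM per kilobase of the deposited gene length). Each genotype was tested alone, without a block, with the edgeR 4.0.16 quasi-likelihood test and filterByExpr (R 4.3.3), p-values being adjusted over all tested genes by Benjamini-Hochberg. Calls needed an adjusted p under 0.01 and |Log2FC| ≥ 1, the thresholds of the study for WT, and for the interaction an adjusted p under 0.05. DESeq2, which the authors used for WT, was an alternative (here version 1.42.0). The scripts were tested on simulated data. The members and all lists were chosen with earlier results of these data known. Named genes were the members, Vim, Cdh2, Cdh11 and repressors, up to 4 genes with the highest mean CPM or called ones in each other list (all 6 mesothelial markers), the 3 nearest profiles and Des, chosen after its values were seen (1 profile and 1 promoter stretch are not reported here). Shared clone numbers pair primary cultures with lines by origin. Deviations from the group means correlated between same-numbered libraries by −0.05 to 0.04 in WT and −0.30 to 0.16 in Prkd3-/-. No libraries were duplicates. Depth was 35273408 to 100441756 counts per library.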

Additional observations from a re-analysis of the deposited data

Results flagged for a closer look

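Single lines lay far from the others by Dixon's test for 5 members among the 4 Prkd3-/- immortalized lines, the only group so tested. The test marks about 5% of groups by chance where values are normally distributed. It was applied to CPM without logarithms, where skewed values can be marked more often, and it was not repeated on the log scale. Krt19 in line 13 stood at 129.1 CPM (6763 read pairs), with the nearest other line at 12.8 CPM. Epcam in line 13a was at 0.192 CPM (14 read pairs), with the nearest other line at 0.0382 CPM. Krt5 in line 15 was at 0.0540 CPM (4 read pairs), and Esrp1 and Grhl2 in the same line were each at 0.0135 CPM (1 read pair), while the other 3 lines had 0 read pairs of each gene. For these 3 genes any read pair in a single line sets that line apart, so the test says nothing about them.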

How the results depend on the processing

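In WT, 361 genes and 0 members were called by edgeR, 1361 genes and 2 members by DESeq2, 157 genes when 10 counts or more were asked of each library, and 0 genes with the clone as a replicate block, while without a filter on low counts 1 member (Krt18) was called. Leaving out 1 library gave 48 to 743 WT calls (48, 50 and 66 without primary clones 3, 4 and 5, and 743 without line 5) and 0 to 1 members, Krt18 being called without line 3 (edgeR adjusted p = 0.00323, range 0.00323 to 0.0997 over the libraries left out). In Prkd3-/- DESeq2 called 190 genes against 0, and for the interaction 37 against 0. Leaving out 1 library gave 0 calls throughout in Prkd3-/- and 0 to 2 for the interaction (2 without line 14). Krt19 changed sign in WT with the replicate block (−0.60) and without line 3, its Log2FC ranging from −0.77 to 1.30 over the libraries left out, in Prkd3-/- from −2.67 to 0.53, and in the interaction from −3.39 to 0.76. The causes were not tested. Summing lines 13 and 13a, or scaling by DESeq2 size factors in edgeR, changed no call of a member, although Cdh1 in WT went from an edgeR adjusted p of 0.0495 to 0.0502 with those factors (0.0393 to 0.207 over the libraries left out). The replicate block changed no other call of a member. Scaling by library size alone moved 0 of the 40 group means of the members and 0 of the 24 set means by more than 1 SD. Tests were limited by depth for 6 members in WT and 5 in Prkd3-/-. The edgeR p-values rest on the spread between 3 or 4 libraries per group, moderated over all genes. Lines 13 and 13a, which share a clone number, entered the main fits as separate libraries, and the pairing by clone was not used there.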
